A study of Mus musculus with 12 samples.

Results

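The difference between 2 genotypes in their response to hemin was measured in mouse colonoids, which are epithelial organoids grown from colonic stem cells. The response with the Hmox1 deletion label minus the response of controls is called the interaction here. It was taken over all 12 libraries of the series and 12740 of 54532 genes, those with at least 1 FPKM in at least 3 libraries. FPKM gives the fragments counted on a gene per kilobase of its length, scaled to the size of the library. Control colonoids carried floxed Hmox1 alleles (Hmox1 fl/fl) and no Vil1 Cre by their labels, and the labelled KO is labelled as deleted for Hmox1 by Vil1 Cre. Each genotype received vehicle or hemin, the ferric chloride salt of heme, at 200 µM for 24 h, with 3 libraries in each of the 4 groups. All were kept in medium conditioned by L-WRN cells, which release Wnt3a, R-spondin and noggin, and came from colons of young adult mice. The Vil1 promoter is active along crypts and surface epithelium of the small and large intestine, so the deletion is meant for epithelium alone. The number of animals behind each genotype is not given, so p-values measure the spread between these libraries, which may be technical. One library, replicate 3 of the hemin-treated labelled KO, has a genotype written as floxed alleles plus Vil1 Cre where the others have KO.

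Libraries held 11648801 to 25101868 fragments on genes, with the hemin-treated controls the smallest group and replicate 2 labelled KO with hemin the largest library. The short RNA Gm23935 took 16.8% of the FPKM sum in vehicle-treated control replicate 1, 29.0% in hemin-treated control replicate 1 and 21.05% in replicate 2 labelled KO with hemin, against 1.18% to 2.81% in the other libraries. All 10 colon epithelial markers checked, Epcam, Cdh1, Vil1 and Cdx2 among them, passed the filter, with a summed level of 5775 to 5806 FPKM in the labelled KO with vehicle and 7568 to 10432 in the other groups. Of fibroblast, endothelial, glial and erythroid markers, 18 in all, none passed the filter on low values, and none exceeded 0.419 FPKM in a library. Of 7 immune markers only Cd68 passed, and its interaction was not called; their sum was 1.02 to 1.63 FPKM in the labelled KO with vehicle and 2.36 to 5.20 in the others, and its part in the results was not tested. Of 12 tuft cell genes none passed.

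Heme oxygenase-1, the product of Hmox1, opens the heme ring and releases iron, carbon monoxide and biliverdin. Free heme removes the repressor BACH1 from antioxidant response elements and favors the activator NRF2, whose targets supply glutathione, NADPH and conjugating enzymes, while released iron acts on ferritin and the transferrin receptor through iron regulatory proteins. Colonic crypts renew from stem cells through a choice between absorptive colonocytes and the secretory goblet and enteroendocrine cells, and injured epithelium can express a fetal-like repair program.

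Hmox1 (ENSMUSG00000005413, chromosome 8 from 75093621 to 75100589 of mm10) rose with hemin in both genotypes and rose more in the labelled KO. Its level was 7.62, 6.85 and 7.896 FPKM with vehicle and 503, 483 and 382 with hemin in controls, and 3.14, 2.11 and 2.31 with vehicle and 1279, 1392 and 1271 with hemin in the labelled KO. Thus the libraries labelled KO were below the controls under vehicle and above them under hemin. The level under hemin shows no loss of Hmox1 RNA, which alone does not go against the label. The interaction was 2.81 (SE 0.17, adjusted p = 1.8e-06) on the scale of log2(FPKM + 1), the scale of all differences below. FPKM of a whole gene does not show whether the transcripts lacked the deleted part.

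Hemin raised 277 genes in controls (2.17% of those tested) and lowered 756 (5.93%), and it raised 620 (4.87%) and lowered 1028 (8.07%) in the labelled KO, at an adjusted p under 0.05 (limma, Benjamini-Hochberg) and a log2 difference above 1 in size. A gene is called where both thresholds are passed, and all counts of members use them. For single genes, rose and fell mean an adjusted p under 0.05 for that genotype. Of the genes raised, 172 were shared, which is 62.1% of those in controls and 27.7% of those in the labelled KO. Of those lowered, 459 were shared, 60.7% and 44.6% of the respective lists. At the same thresholds the response was more positive in the labelled KO for 328 genes (2.57%) and more negative for 326 (2.56%). By the adjusted p alone it was more positive for 1695 genes (13.3%) and more negative for 1336 (10.5%). Counts of called list members are to be read against 2.57% and 2.56%, and counts by the adjusted p alone against 13.3% and 10.5%. The median interaction over all genes was 0.02, and 51.9% of genes had a positive one. After rescaling to TPM, in which every library has the same sum, a step that moves the median response of all genes to −0.16 in controls and −0.27 in the labelled KO and the median interaction to −0.11, hemin raised 171 and lowered 1035 genes in controls and raised 305 and lowered 1808 in the labelled KO. The interaction was then called for 246 genes as more positive and 437 as more negative.

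Among the 328 genes with a more positive response, 158 rose in the labelled KO and rose less or not at all in controls, 103 fell in controls and fell less or not at all in the labelled KO, 66 fell in controls and rose in the labelled KO, and 1 could not be placed. Among the 326 with a more negative response, 256 fell in the labelled KO and fell less or not at all in controls, 37 rose in controls and rose less or not at all in the labelled KO, and 33 rose in controls and fell in the labelled KO. Genes that rose more had a median response of 0.21 in controls and 1.58 in the labelled KO, and genes that fell more had −0.24 and −1.67.

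**Figure D1:**
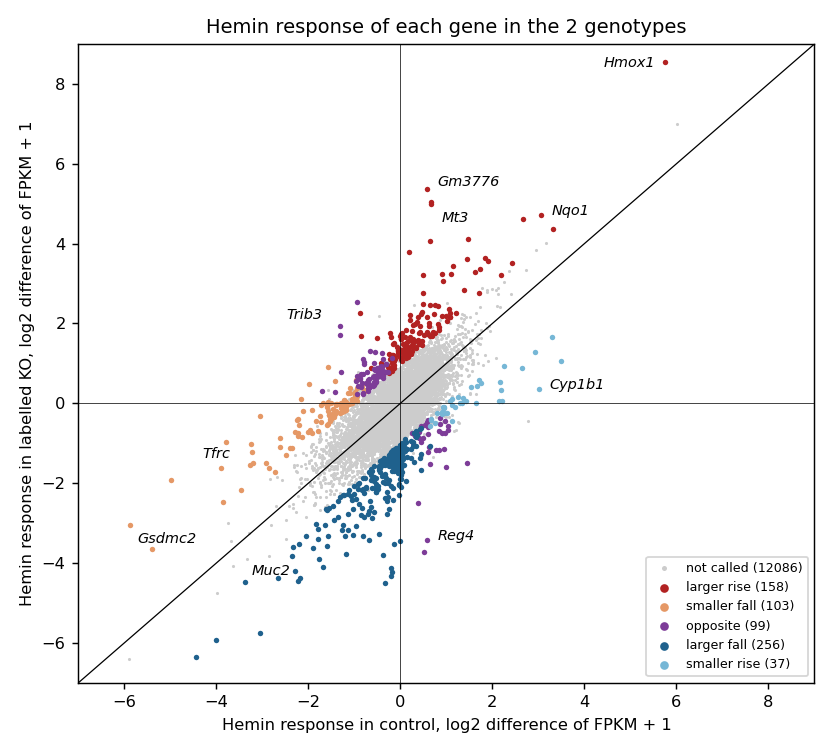
Each point is 1 of 12740 genes, with its hemin response in controls on the horizontal axis and in the labelled KO on the vertical axis, both as log2 differences of FPKM + 1; the diagonal marks equal responses and colors give the classes of called genes. Hmox1 lies far from the other genes at 5.75 and 8.55, and the 158 genes that rose more and the 256 that fell more lie above and below the diagonal on either side of 0.

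The genotypes also differed without hemin. The labelled KO and controls differed in 866 genes under vehicle (6.8% of those tested) and in 766 under hemin (6.01%). Among genes with a more positive response, the genotypes differed under hemin alone for 91, under vehicle alone for 88, under both for 34 and under neither for 115. Among genes with a more negative response, they differed under vehicle alone for 136, under hemin alone for 64, under both for 54 and under neither for 72. Thus 41.7% of the more negative responses belonged to genes whose genotypes were called different before hemin and not after it. For 93 of the 326 genes all 6 control libraries stayed under 1 FPKM, where a fall is hard to see. The same held for 19 of the 328 genes with a more positive response, and all 6 libraries of the labelled KO stayed under 1 FPKM for 26 of the 328 and 14 of the 326. In all, 30 of the 328 and 84 of the 326 reached 1 FPKM in 1 group only and passed the filter through that group.

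**Figure D2:**
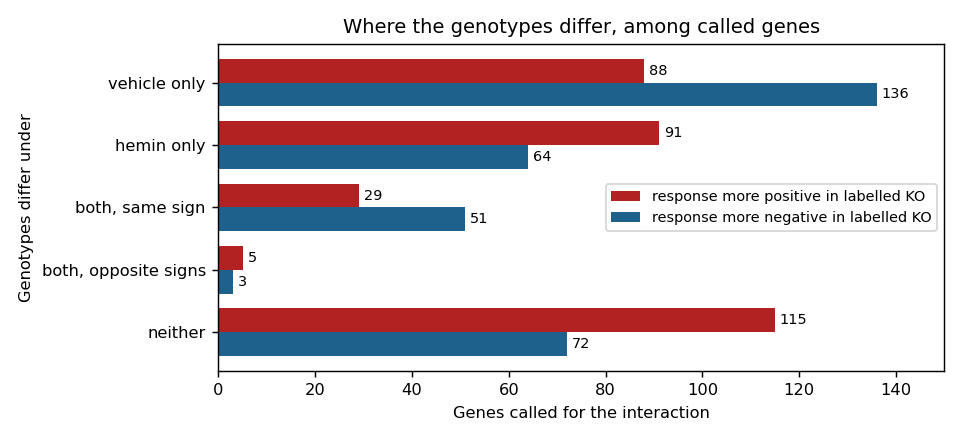
Bars count genes called for the interaction by the treatment under which the genotypes also differed at the same thresholds, in red for a more positive and in blue for a more negative response in the labelled KO. Differences under vehicle alone were most frequent for more negative responses, with 136 genes.

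Of 23 NRF2 target genes tested, 15 were called more positive and none more negative, all 23 had an interaction above 0, and the median was 1.08, against 0.02 over all genes. Hemin raised 12 of them in controls and 20 in the labelled KO, and lowered none in either. Slc7a11, the cystine importer of system xc−, stood at 3.24, 2.82 and 2.97 FPKM with vehicle and 9.86, 8.65 and 11.8 with hemin in controls, and 0.624, 0.6898 and 0.738 with vehicle and 28.03, 28.5 and 27.7 with hemin in the labelled KO. It began lower in the labelled KO and ended higher, with no overlap between the groups, and its interaction was 2.65 (SE 0.13, adjusted p = 4.4e-07). Gclc, the catalytic subunit of the first enzyme of glutathione synthesis, stood at 57.7, 56.4 and 55.6 FPKM with vehicle and 334, 332 and 430.1 with hemin in controls, and 31.9, 30.1 and 30.5 with vehicle and 769.7, 796 and 772 with hemin in the labelled KO. Its order was the same, below the controls under vehicle and above them under hemin, with an interaction of 1.95 (SE 0.13, adjusted p = 2.3e-06). Srxn1, which repairs oxidized peroxiredoxins, stood at 38.03, 38.2 and 40.6 FPKM with vehicle and 142, 142 and 141 with hemin in controls, and 23.3, 22.2 and 21.8 with vehicle and 318, 264 and 298 with hemin in the labelled KO, and its interaction was 1.81 (SE 0.10, adjusted p = 7.9e-07). Nqo1, a quinone reductase, rose 28.1-fold in mean FPKM in the labelled KO and 8.57-fold in controls, with an interaction of 1.65. The aldo-keto reductase Akr1b8 and the carbonyl reductase Cbr3 had interactions of 1.67 and 1.63.

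Not all NRF2 targets ended higher in the labelled KO. Of the 15 called, 6 were lower there than in controls under vehicle, 7 were higher under hemin and 1 was lower under hemin. That gene was Me1, the NADPH-producing malic enzyme, at 14.7, 14.9 and 14.7 FPKM with vehicle and 29.5, 29.7 and 41.3 with hemin in controls, and 0.111, 0.0902 and 0.139 with vehicle and 9.06, 10.4 and 9.35 with hemin in the labelled KO. It rose from near 0 in the labelled KO, by 3.25 against 1.11 in controls, yet its hemin-treated libraries stayed below every control library. After rescaling to TPM, 9 of the 23 were called more positive, with a median of 0.94.

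Glutathione synthesis and recycling followed with 5 of 14 members, Slc7a11, Chac1, Slc3a2, Gclc and Gpx2, more positive and none more negative, at a median of 0.64. Lists share members, so their counts are not independent. Slc7a11 and Gclc are also in the NRF2 list. So are Me1, G6pdx, Pgd, Srxn1, Prdx1, Akr1b8, Nqo1, Cbr3, Ephx1, Abcc4 and Sqstm1, which are counted again in lists below. Slc7a11, Chac1 and Slc3a2 also count in the integrated stress response. Atf3 counts there and in the AP-1 list, and Gdf15 there and in the p53 list. Slc3a2, the heavy chain that pairs with Slc7a11, stood at 33.7, 37.4 and 37.8 FPKM with vehicle and 58.2, 56.4 and 40.5 with hemin in controls, and 24.3, 23.7 and 25.4 with vehicle and 179, 160.1 and 177 with hemin in the labelled KO. The hemin-treated genotypes did not overlap, and the interaction was 2.28 (SE 0.17, adjusted p = 6.1e-06). Chac1, a glutathione-degrading enzyme of the same list, rose 18.1-fold in mean FPKM in the labelled KO and 2.34-fold in controls, and its levels under hemin overlapped, at 33.5, 19.00 and 27.8 against 33.9, 27.5 and 21.8 FPKM. Of 10 enzymes of the pentose phosphate pathway and NADPH supply, Me1, Idh1, G6pdx and Pgd were called more positive (2 of 10 with TPM). Pgd, the next dehydrogenase of that pathway, was close to the threshold at 1.04, and at 0.95 without control hemin replicate 3. G6pdx, which catalyzes the entry step, stood at 37.6, 38.5 and 38.9 FPKM with vehicle and 58.7, 62.9 and 55.7 with hemin in controls, and 33.8, 36.5 and 34.8 with vehicle and 117, 124 and 118 with hemin in the labelled KO. The genotypes were close under vehicle and far apart under hemin, with an interaction of 1.13 (SE 0.08, adjusted p = 5.6e-06), or 0.99 with TPM. Idh1, the cytosolic isocitrate dehydrogenase, had an interaction of 1.32 (SE 0.10, adjusted p = 1e-05).

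Glutathione S-transferases, which conjugate glutathione to electrophiles, held 4 of the 12 largest positive interactions that the naming rule picked. Of 25 tested, 8 were called more positive and none more negative, while the median of the list was 0.31. Gsta1 stood at 41.8, 53.1 and 50.9 FPKM with vehicle and 82.5, 58.2 and 96.6 with hemin in controls, and 12.9, 15.6 and 11.5 with vehicle and 539.8, 325 and 579 with hemin in the labelled KO. Gm3776, a neighboring gene of the same alpha class, stood at 15.7, 20.6 and 18.3 FPKM with vehicle and 26.6, 26.8 and 29.1 with hemin in controls, and 5.32, 3.91 and 3.26 with vehicle and 213, 213 and 197 with hemin in the labelled KO. Both began lower and ended higher in the labelled KO, with 36.1-fold and 49.9-fold rises of mean FPKM there against 1.63-fold and 1.51-fold in controls. Gsta2 and Gm10639 had interactions of 3.41 and 3.61. These alpha-class copies on chromosome 9 are near-identical, so reads may be split between them and their separate values are uncertain. Of 13 thioredoxins and peroxiredoxins, Srxn1 and Prdx1 were called more positive. Prdx1, at 1.05, lay near the threshold and passed below it at 0.93, 0.98 and 0.98 without control vehicle replicate 1, control hemin replicate 2 and KO hemin replicate 2 in turn.

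Of 8 tested genes of NRF2, BACH1 and their partners, none was called in either direction. With 2.57% and 2.56% of all genes called, a list this short would often hold none. Their interactions ran from −0.12 to 0.78 at a median of 0.31, and 7 of the 8 were above 0. Nfe2l2, the gene of NRF2, stood at 93.5, 88.9 and 86.8 FPKM with vehicle and 92.2, 87.95 and 123 with hemin in controls, and 52.6, 49.1 and 49.4 with vehicle and 51.8, 54.6 and 48.2 with hemin in the labelled KO. It was lower in the labelled KO with either treatment, and its interaction was −0.12 (SE 0.15, adjusted p = 0.63).

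Of 19 conjugation enzymes and export pumps, 3 ATP-driven pumps of the ABCC family, Abcc2, Abcc4 and Abcc3, were called more positive and none more negative. Abcc3, at 1.05, lost its call at 0.98 without control vehicle replicate 2 and at 0.9997 without control hemin replicate 3. With TPM it was at 0.91 (adjusted p = 0.0582) and not called. Abcc2, which exports glutathione conjugates across the apical membrane, rose from 0.244, 0.2102 and 0.251 to 2.93, 2.91 and 2.44 FPKM in the labelled KO and stood at 0.0924, 0.158 and 0.196 and 0.185, 0.168 and 0.1405 in controls, so it passed the filter through the hemin-treated labelled KO alone. Of 37 aldehyde, ketone and quinone enzymes, Akr1b7, Akr1b8, Nqo1, Cbr3 and Ephx1 were more positive and Aldh18a1 and Adh1 more negative, and Akr1b7 lost its call with limma-voom, a fit on the recovered fragments of each library (adjusted p = 0.109). Cytochrome P450 genes and the AhR axis were split, with Cyp3a13, Cyp2d10 and Cyp2s1 of 25 tested more positive and Cyp1b1, Cyp2f2, Cyp2b10, Cyp2c55 and Cyp2c68 more negative. At a mean of at least 5 FPKM, 3 of 18 were more positive and 2 more negative, and Cyp1b1 and Cyp2f2 each reached 1 FPKM in 1 group only. Cyp1b1, an AhR target, had a smaller rise in the labelled KO. It stood at 0.248, 0.331 and 0.227 FPKM with vehicle and 8.67, 8.79 and 10.2 with hemin in controls, and 0.0119, 0 and 0.0232 with vehicle and 0.176, 0.497 and 0.258 with hemin in the labelled KO. The controls alone left the low range, and the interaction was −2.64 (SE 0.15, adjusted p = 9.6e-07), which limma-voom put at −0.61 (adjusted p = 0.672).

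Iron genes took both directions. Of 18 genes of iron uptake, storage and export, Tfrc, Fth1 and Ftl1 were called more positive and Slc11a2 more negative. Fth1, the ferritin heavy chain, stood at 822, 783 and 776 FPKM with vehicle and 2512, 2483 and 2316 with hemin in controls, and 539, 552 and 549 with vehicle and 5352, 5318 and 5284 with hemin in the labelled KO. The 3 libraries of each group lay close together and the groups did not overlap, with an interaction of 1.66 (SE 0.09, adjusted p = 5.5e-07). Ftl1, the light chain, had an interaction of 1.11 (SE 0.15, adjusted p = 0.00043), which was 0.99 without control hemin replicate 3, and it may share reads with near-identical copies. Tfrc, the transferrin receptor, fell in both genotypes and fell less in the labelled KO, from 72.7, 67.2 and 68.5 to 22.4, 24.2 and 22.3 FPKM against 70.2, 59.9 and 59.99 to 4.78, 5.41 and 6.795 in controls. Slc11a2, the divalent metal importer DMT1, stood at 6.899, 7.44 and 7.66 FPKM with vehicle and 6.06, 6.22 and 5.82 with hemin in controls, and 104, 113 and 109 with vehicle and 17.4, 15.9 and 16.1 with hemin in the labelled KO. It was far above the controls in the labelled KO under vehicle, fell there by 2.65 on the log2 scale and still ended above them. Of 9 tested genes of heme breakdown and transport, Hmox1 and the biliverdin reductase Blvrb were called more positive. Blvrb, at 1.02, was below the threshold of size, at 0.86 to 0.99, without control vehicle replicate 3, control hemin replicate 3, KO vehicle replicate 1 or KO hemin replicate 1 or 3. Of 11 heme synthesis genes none was called.

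Metallothioneins are small cysteine-rich proteins that bind zinc and copper. Their list, which also holds zinc transporters, gave 2 calls among 14 tested genes, Mt3 and Mt4. The list's median interaction was 0.17. Mt3 stood at 0.171, 0.1098 and 0.0683 FPKM with vehicle and 0.658, 0.635 and 1.04 with hemin in controls, and 0.2295, 0.163 and 0.501 with vehicle and 39.2, 41.7 and 38.8 with hemin in the labelled KO, and its interaction was 4.32 (SE 0.16, adjusted p = 4.8e-08). Mt4 stood at 0.152, 0.294 and 0 FPKM with vehicle and 0.881, 1.49 and 1.08 with hemin in controls, and 5.07, 5.52 and 4.18 with vehicle and 62.6, 43.8 and 58.3 with hemin in the labelled KO, with an interaction of 2.33 (SE 0.22, adjusted p = 3.7e-05). Both reached their highest level in the hemin-treated labelled KO, while controls with vehicle stayed under 0.3 FPKM. With a pseudocount of 0.1 the interaction of Mt4 was 0.94 (adjusted p = 0.285) and no longer called, and with limma-voom it was 0.81 (adjusted p = 0.571).

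**Figure D3:**
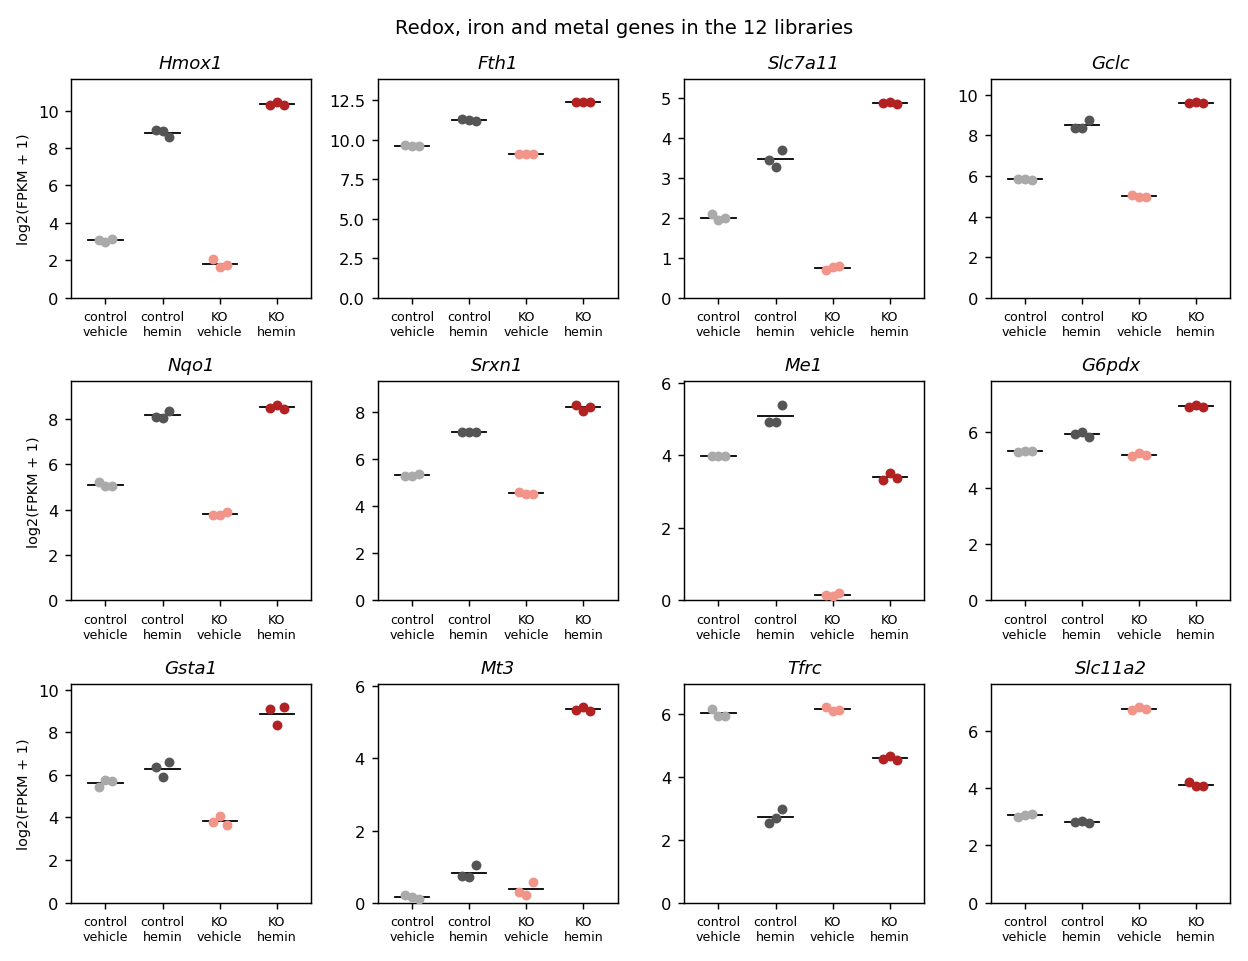
Each panel gives log2(FPKM + 1) of 1 gene in the 12 libraries, with points for libraries and a line for the mean of each group of 3. Hmox1, Slc7a11, Gclc, Nqo1 and Srxn1 lie lowest in the labelled KO with vehicle and highest in it with hemin, while Me1 stays below the controls and Slc11a2 falls from a high level.

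The integrated stress response, in which ATF4 drives amino acid supply and CHOP-dependent genes, had 9 of 35 members more positive and 2 more negative, at a median of 0.39. Hemin raised 2 and lowered 7 of the list in controls, and raised 7 and lowered 5 in the labelled KO. Trib3, a pseudokinase induced by ATF4 and CHOP, stood at 14.9, 14.7 and 18.2 FPKM with vehicle and 7.095, 5.13 and 5.32 with hemin in controls, and 0.489, 0.408 and 0.531 with vehicle and 5.39, 3.56 and 5.25 with hemin in the labelled KO. It fell in controls and rose in the labelled KO, with an interaction of 3.25 (SE 0.21, adjusted p = 2e-06), and the hemin-treated groups overlapped. Thus Trib3 was far lower in the labelled KO before hemin and at a like level after it. Atf3, a stress transcription factor, also fell in controls (−0.65) and rose in the labelled KO (1.30). Gdf15, a secreted stress cytokine, stood at 21.3, 18.5 and 22.98 FPKM with vehicle and 1.75, 1.78 and 1.39 with hemin in controls, and 11.99, 12.03 and 10.9 with vehicle and 9.64, 9.06 and 8.92 with hemin in the labelled KO. It fell by 3.05 on the log2 scale in controls and by 0.31 in the labelled KO. The 2 more negative members were Phgdh and Aldh18a1, enzymes of serine and proline synthesis. None of 20 cytosolic tRNA synthetases was called.

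Promoters are shown for the elements that NRF2 and ATF4 bind, in 2 members of the NRF2 list, in Abcc2 of the export pump list, and in 3 genes of the integrated stress response list. Sequences are from RefSeq on GRCm38.p6, 5′ to 3′ on the strand of the gene, upstream of an annotated start, with the matched letters in capitals. The antioxidant response element was searched as TGACNNNGC and the element bound by ATF4 with CHOP or C/EBP partners as TGATGNAA, on both strands, over the 250 bases before and 50 after each start.
Prdx1, antioxidant response element (chr4:116685441-116685499, plus strand): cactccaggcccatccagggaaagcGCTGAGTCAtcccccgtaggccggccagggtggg
G6pdx, antioxidant response element (chrX:74428904-74428962, minus strand): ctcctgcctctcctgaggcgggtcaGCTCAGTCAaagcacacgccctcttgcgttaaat
Abcc2, antioxidant response element (chr19:43782185-43782243, plus strand): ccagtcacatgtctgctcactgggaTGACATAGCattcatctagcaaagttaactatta
Slc7a11, ATF4 element (chr3:50443628-50443685, minus strand): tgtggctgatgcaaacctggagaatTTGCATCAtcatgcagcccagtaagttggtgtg
Chac1, ATF4 element (chr2:119351024-119351081, plus strand): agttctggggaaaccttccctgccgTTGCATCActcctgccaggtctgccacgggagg
Atf3, ATF4 element (chr1:191183411-191183468, minus strand): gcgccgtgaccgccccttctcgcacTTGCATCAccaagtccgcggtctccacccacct
The match of Slc7a11 lies close to another one on the opposite strand. Of the 328 genes with a more positive response, 213 had a promoter in the sequence table, and 20.2% of these held the antioxidant response element, against 13.3% of 225 with a more negative response, 17.1% of 8893 tested genes and 14.0% of all 27025 genes with a promoter. In the NRF2 target list 9 of 20 held it. The ATF4 element was in 4.23% of more positive, 3.11% of more negative and 2.70% of tested genes and in 4.51% of all genes with a promoter, and in 9 of 31 integrated stress response genes. The core of the metal response element (TGCNCNC) was in 66.7% of more positive, 58.2% of more negative, 64.1% of tested genes and 53.6% of all genes with a promoter. These matches describe letters in a window of promoter and not binding.

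Of 25 AP-1 and immediate early genes, 10 were called more positive and none more negative, and the median response was −0.54 in controls and 0.36 in the labelled KO. Among the 10, 5 fell in controls and rose in the labelled KO, and the genotypes differed with vehicle alone for 2, with hemin alone for 2 and with neither for 6. Ctgf, a matricellular protein, stood at 25.8, 26.1 and 27.8 FPKM with vehicle and 4.81, 5.23 and 5.59 with hemin in controls, and 17.4, 17.5 and 17.5 with vehicle and 19.5, 19.4 and 17.6 with hemin in the labelled KO. It fell in controls and did not pass the test in the labelled KO, with an interaction of 2.25 (SE 0.09, adjusted p = 7.9e-08). Ier3, an early response gene that limits apoptosis, had −0.78 in controls and 1.03 in the labelled KO. With TPM, 6 of the 25 were more positive and 1 more negative. Of 27 p53 target genes, Gdf15, Pmaip1, Plk3 and Trp53inp1 were more positive and none more negative, although the list's median was 0.10. The share called more positive was 14.8%, against 2.57% of all genes. Pmaip1, the BH3-only protein NOXA, stood at 14.7, 12.5 and 13.3 FPKM with vehicle and 7.16, 6.46 and 6.05 with hemin in controls, and 16.7, 17.5 and 16.99 with vehicle and 30.4, 25.2 and 28.3 with hemin in the labelled KO, and its interaction was 1.62 (SE 0.12, adjusted p = 6e-06). Of 20 heat shock proteins, Hspa1b, Hspa1a and Hspb1 were more positive, and the Hspa1 copies may share reads. With TPM 1 of the 20 was called, with Hspa1a at 1.15 (adjusted p = 0.061) and Hspb1 at 0.86 (adjusted p = 0.0575). Hspa1a was at 0.95 without control hemin replicate 3, and missed the adjusted p (0.0529) without KO hemin replicate 1 or 3. Hspb1 was at 0.89 to 0.98 without control vehicle replicate 1, control hemin replicate 2 or 3, KO vehicle replicate 1 or KO hemin replicate 1, and missed the adjusted p with a pseudocount of 0.1 (adjusted p = 0.108) and with limma-voom (adjusted p = 0.0942). Of 38 proteasome genes none was called. Of 27 unfolded protein response genes, Ern2, the IRE1 form of goblet cells, was the 1 call, at −1.47 (SE 0.18, adjusted p = 0.00016). Of 28 lysosome and autophagy genes, Sqstm1 and Ctsd were more positive, or 7.14% against 2.57% of all genes. Sqstm1, an autophagy receptor, had 1.31 (SE 0.14, adjusted p = 7.3e-05), and Ctsd, cathepsin D, had 1.07, or 0.88 without control hemin replicate 3.

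Fetal-like and wound repair genes had the highest median interaction of the lists with at least 8 members tested, at 1.19. Of 18 tested, 11 were called more positive and none more negative. Hemin lowered 7 and raised none of them in controls, and lowered 3 and raised 3 in the labelled KO. Anxa8, an annexin of the repair program, stood at 79.8, 77.6 and 82.9 FPKM with vehicle and 25.2, 24.2 and 22.4 with hemin in controls, and 91.7, 87.3 and 87.4 with vehicle and 123, 97.98 and 111 with hemin in the labelled KO. The genotypes were close under vehicle. With hemin it fell in controls and rose by 0.31 on the log2 scale in the labelled KO, with an interaction of 2.01 (SE 0.11, adjusted p = 1e-06). Msln, mesothelin, stood at 94.1, 108 and 107 FPKM with vehicle and 20.8, 24.7 and 18.7 with hemin in controls, and 82.96, 81.2 and 83.8 with vehicle and 66.5, 54.8 and 67.1 with hemin in the labelled KO. It fell by 2.22 on the log2 scale in controls and by 0.40 in the labelled KO. Plaur, the urokinase receptor, rose in the labelled KO from 14.1, 13.7 and 12.7 to 51.5, 37.5 and 46.02 FPKM and stood at 28.7, 32.8 and 32.3 and 35.1, 39.1 and 27.1 in controls. Thus the list holds genes that fell less and genes that rose more.

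Growth factor and prostaglandin genes were also called. Of 10 EGF receptor ligands and receptors, the ligands Areg, Hbegf and Btc were more positive and Lrig1, a negative regulator of the receptor and a stem cell marker, was more negative (−1.34, SE 0.12, adjusted p = 2.7e-05). Btc was at 0.95 without the 3 libraries rich in Gm23935, below the threshold of size. Areg, amphiregulin, stood at 141, 122 and 139 FPKM with vehicle and 72.4, 73.5 and 81.7 with hemin in controls, and 59.6, 52.8 and 54.1 with vehicle and 132, 107 and 123 with hemin in the labelled KO. It was higher in controls under vehicle and higher in the labelled KO under hemin. Ptgs2, the inducible cyclooxygenase, stood at 0.106, 0.102 and 0.127 FPKM with vehicle and 0.555, 0.739 and 0.411 with hemin in controls, and 0.628, 0.568 and 0.467 with vehicle and 13.8, 13.8 and 12.9 with hemin in the labelled KO, with an interaction of 2.73 (SE 0.12, adjusted p = 2.3e-07). It passed the filter through the hemin-treated labelled KO alone. Of 9 prostaglandin genes, Ptgs2 and the degrading enzyme Hpgd were more positive and Pla2g4a, a phospholipase that frees arachidonic acid, more negative (−1.08, SE 0.14, adjusted p = 0.00025). Hpgd, at 1.00, was below the threshold of size, at 0.80 to 0.99, without control vehicle replicate 1, control hemin replicate 1 or 2, KO vehicle replicate 2 or 3 or KO hemin replicate 2.

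Glycolysis and hypoxia response genes had a median response of −0.53 in controls and close to 0 in the labelled KO. Of 31 entries tested, in which Aldoa stands under 2 gene identifiers, 8 were called more positive and none more negative, 29 had an interaction above 0, and the median was 0.73. Hemin lowered 6 and raised none in controls, and lowered 1 and raised 1 in the labelled KO. Ndrg1, a hypoxia-induced gene, stood at 106, 105 and 111 FPKM with vehicle and 24.1, 18.6 and 25.6 with hemin in controls, and 41.1, 39.9 and 39.7 with vehicle and 30.6, 23.5 and 27.8 with hemin in the labelled KO. The genotypes differed under vehicle and overlapped under hemin, with an interaction of 1.65 (SE 0.16, adjusted p = 4.6e-05). Egln3, a prolyl hydroxylase that tags HIF, stood at 65.4, 59.9 and 62.7 FPKM with vehicle and 24.2, 16.9 and 20.6 with hemin in controls, and 122, 128 and 126 with vehicle and 141, 114 and 129.9 with hemin in the labelled KO. It fell in controls (−1.57) and did not pass the test in the labelled KO (0.03). Of 25 cholesterol synthesis genes, 23 had an interaction above 0 at a median of 0.55, and 13 passed the adjusted p alone, but none had a difference above 1.

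Goblet cell genes went the other way. Of 20 tested, 13 were called more negative and 2 more positive, and the median interaction was −1.42. Hemin lowered 8 of them in controls and 16 in the labelled KO, and raised none. Muc2, the gel-forming mucin of colonic mucus, stood at 85.6, 119 and 107 FPKM with vehicle and 57.3, 57.3 and 60.8 with hemin in controls, and 72.9, 71.8 and 72.7 with vehicle and 6.75, 5.54 and 6.92 with hemin in the labelled KO. The other 3 groups lay between 57.3 and 119 FPKM and the hemin-treated labelled KO at 6.92 or less, with an interaction of −2.51 (SE 0.16, adjusted p = 1.8e-06). Agr2, a disulfide isomerase needed for mucin folding, stood at 214, 185 and 189 FPKM with vehicle and 102, 83.4 and 115 with hemin in controls, and 449, 424 and 429 with vehicle and 47.3, 55.6 and 48.5 with hemin in the labelled KO, and its interaction was −2.11 (SE 0.16, adjusted p = 6.4e-06). It began higher in the labelled KO and ended lower. Spdef, the transcription factor of goblet maturation, stood at 17.97, 20.03 and 17.6 FPKM with vehicle and 2.66, 3.34 and 0.817 with hemin in controls, and 23.3, 23.8 and 24.7 with vehicle and 0.211, 0.221 and 0.181 with hemin in the labelled KO. It fell in both, and replicate 3 of the hemin-treated controls lay below the other controls; the interaction was −1.70 (SE 0.34, adjusted p = 0.0046), and without the 3 libraries rich in Gm23935 Spdef was at −1.57 (adjusted p = 0.053). The 2 more positive members were Retnlb and Spink4, which fell in controls and fell less or not at all in the labelled KO. In bulk libraries, fewer cells of a type and less RNA per cell cannot be told apart.

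Of 14 Notch pathway and secretory fate genes, Neurog3, Spdef, Hes6 and Atoh1 were more negative and none more positive. With limma-voom 7 were more negative and 1 more positive, and without the 3 libraries rich in Gm23935 Neurog3 was the 1 call, with Hes6 at −1.01 (adjusted p = 0.051). Neurog3, which commits cells to the enteroendocrine fate, had the largest negative interaction of all named genes, at −4.24 (SE 0.15, adjusted p = 3.9e-08). It stood at 2.897, 2.27 and 2.78 FPKM with vehicle and 4.56, 4.09 and 3.89 with hemin in controls, and 20.2, 20.98 and 20.8 with vehicle and 0.747, 0.381 and 0.791 with hemin in the labelled KO. It rose in controls and fell in the labelled KO, from a level above all controls to one below them. Atoh1, which opens the secretory lineage, fell in both genotypes, with an interaction of −1.03 (SE 0.18, adjusted p = 0.0019). It missed the threshold of size, at −0.91 to −0.99 or −0.9996, when control vehicle replicate 2 or 3, control hemin replicate 2, KO vehicle replicate 2 or KO hemin replicate 2 was left out.

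Of 24 enteroendocrine genes, 8 were more negative and none more positive, at a median of −0.37. At a mean of at least 5 FPKM, 4 of 10 tested were more negative, and Fev, Nkx2-2 and Pax4, 3 of the 8, passed the filter through the vehicle-treated labelled KO alone. Hemin lowered 11 of the 24 in the labelled KO and 1 in controls. Under vehicle 16 of the 24 were higher and 1 lower in the labelled KO, against 11 higher and 3 lower under hemin. Of all genes, 6.8% and 6.01% differed in either direction under vehicle and hemin. Insm1, a transcription factor of these cells, stood at 2.33, 2.27 and 2.32 FPKM with vehicle and 1.53, 1.5003 and 0.469 with hemin in controls, and 16.8, 18.3 and 16.5 with vehicle and 2.22, 2.34 and 2.496 with hemin in the labelled KO. The genotypes were far apart with vehicle and nearer with hemin, with an interaction of −1.79 (SE 0.24, adjusted p = 0.00035). Gcg, proglucagon, had −1.66 (SE 0.26, adjusted p = 0.001), and Sst, somatostatin, rose in controls (0.83) and fell in the labelled KO (−1.16). Of 17 stem cell and Wnt target genes, Smoc2, Slc12a2 and Lrig1 were more negative and none more positive. Smoc2, a crypt base marker, stood at 3.57, 2.77 and 3.203 FPKM with vehicle and 0.265, 0.341 and 0.394 with hemin in controls, and 8.43, 8.83 and 8.12 with vehicle and 0.1099, 0.141 and 0.201 with hemin in the labelled KO. It fell below 0.4 FPKM in both, from a higher start in the labelled KO, with an interaction of −1.39 (SE 0.12, adjusted p = 1.9e-05).

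**Figure D4:**
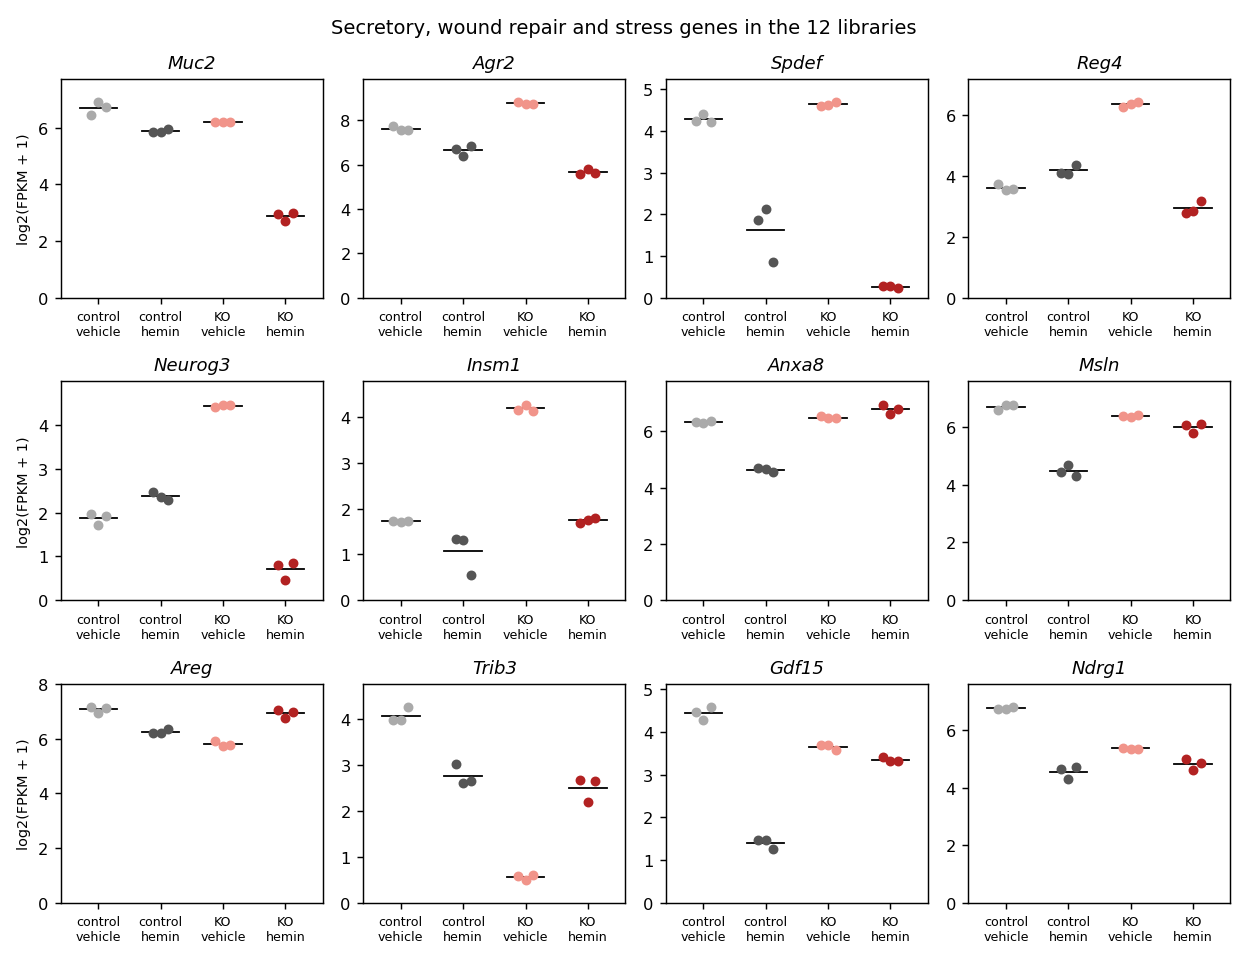
Each panel gives log2(FPKM + 1) of 1 gene in the 12 libraries, with points for libraries and a line for the mean of each group of 3. Muc2, Agr2, Spdef, Reg4 and Neurog3 are lowest in the hemin-treated labelled KO, Anxa8, Msln and Gdf15 lowest in the hemin-treated controls, and Trib3 starts lowest in the labelled KO with vehicle.

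Host defense genes were divided. Of 14 secreted antimicrobial proteins, Pla2g2f, Reg4, Ang4, Pigr and Reg3b were more negative and Slpi, Retnlb and Wfdc2 more positive, or 5 and 1 with limma-voom. Pla2g2f and Reg3b each reached 1 FPKM in 1 group only. Reg4, a lectin of secretory cells that the goblet list also holds, stood at 12.2, 10.6 and 10.8 FPKM with vehicle and 16.2, 15.6 and 19.6 with hemin in controls, and 75.97, 80.5 and 84.2 with vehicle and 5.92, 6.12 and 7.99 with hemin in the labelled KO. It rose in controls and fell in the labelled KO, with an interaction of −3.98 (SE 0.16, adjusted p = 7.9e-08). Pigr, which carries IgA across the epithelium, stood at 439, 408 and 414 FPKM with vehicle and 669, 609 and 696 with hemin in controls, and 471, 463 and 463 with vehicle and 163, 165 and 160.0 with hemin in the labelled KO. Its groups were close under vehicle and parted under hemin in opposite directions, with an interaction of −2.15 (SE 0.09, adjusted p = 8.9e-08). Ang4, a bactericidal ribonuclease, had −2.40 (SE 0.22, adjusted p = 2.8e-05). Of 17 chemokines and cytokines, Ccl20, Ccl2 and Ccl6 were more negative and Cxcl5 and Cxcl16 more positive. Ccl2 was listed at 0 in all 6 control libraries and stood at 2.85, 2.34 and 2.14 FPKM with vehicle and 0.488, 0.187 and 0.367 with hemin in the labelled KO, so it passed the filter through 1 group and its fall could be seen in the labelled KO alone. With TPM, Cxcl16 was at 0.98, below the threshold of size. Ccl20, which attracts CCR6-bearing lymphocytes, stood at 1.71, 1.98 and 2.77 FPKM with vehicle and 6.72, 6.01 and 10.5 with hemin in controls, and 3.01, 2.77 and 2.72 with vehicle and 0.342, 0.359 and 0.392 with hemin in the labelled KO. It rose in controls and fell in the labelled KO, with an interaction of −2.94 (SE 0.24, adjusted p = 1.4e-05).

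Interferon-stimulated genes gave 6 of 34 more positive and 3 more negative. Rsad2, viperin, stood at 0.126, 0.05399 and 0.168 FPKM with vehicle and 0.465, 0.449 and 0.7898 with hemin in controls, and 0.0988, 0.1601 and 0.192 with vehicle and 7.69, 3.73 and 5.39 with hemin in the labelled KO, with an interaction of 1.99, and Isg15, a ubiquitin-like modifier, had an interaction of 1.77 (SE 0.35, adjusted p = 0.0042). With limma-voom on the fragments these were 2.74 (adjusted p = 0.069) for Rsad2 and 2.01 (adjusted p = 0.062) for Isg15. Rsad2 and Oas3, 2 of the 6, passed the filter through the hemin-treated labelled KO alone. Hemin raised 15 of the list in the labelled KO and 3 in controls. The count of 6 was 3 without KO hemin replicate 1, 10 without KO hemin replicate 2, 10 with a pseudocount of 0.1, 10 without the 3 libraries rich in Gm23935, and 0 of 20 tested at a mean of at least 5 FPKM. The more negative were Ddx58, the RNA sensor RIG-I, and Ifitm3 and Ifitm2, membrane proteins that restrict viruses. Ifitm2 stood at 51.9, 50.03 and 51.7 FPKM with vehicle and 37.1, 34.1 and 30.6 with hemin in controls, and 60.4, 76.3 and 64.2 with vehicle and 11.2, 9.73 and 7.02 with hemin in the labelled KO. Ifitm3 stood at 22.01, 21.2 and 22.3 FPKM in the labelled KO with vehicle and was listed at 0 there with hemin, while controls were at 0.537 or less with vehicle and at 0 with hemin, so its fall could be seen in the labelled KO alone. Of 18 MHC and antigen processing genes none was called.

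Colonocyte transport and differentiation genes were also divided, with Aqp8, Sgk1, Atp12a and Scnn1a of 27 tested more positive and Car4, Best2, Guca2a, Slc26a3 and Cftr more negative. Aqp8, a water and peroxide channel of surface colonocytes, stood at 38.2, 47.6 and 46.2 FPKM with vehicle and 10.98, 11.4 and 8.500 with hemin in controls, and 408, 445 and 425 with vehicle and 778, 421 and 642 with hemin in the labelled KO. It fell in controls and was far higher in the labelled KO with either treatment, with an interaction of 2.48 (SE 0.27, adjusted p = 9.2e-05). Sgk1, a kinase that activates sodium uptake, stood at 3.19, 3.44 and 3.32 FPKM with vehicle and 10.6, 10.3 and 11.2 with hemin in controls, and 8.31, 8.73 and 8.55 with vehicle and 118, 115 and 113 with hemin in the labelled KO, and its interaction of 2.17 (SE 0.07, adjusted p = 3.2e-08) came with no overlap of groups. Car4, a membrane carbonic anhydrase, had −2.75 (SE 0.26, adjusted p = 3.7e-05), and Best2, an anion channel of the distal colon, stood at 0.246, 0.238 and 0.197 FPKM with vehicle and 0, 0 and 0 with hemin in controls, and 13.7, 15.4 and 15.4 with vehicle and 1.06, 1.51 and 1.35 with hemin in the labelled KO. Controls were near 0 for Best2 with either treatment, and limma-voom on the fragments gave it an interaction of 0.18 (adjusted p = 0.888). Of 28 regional identity and Hox genes, Hoxb6 and Hoxb5 were called, both more negative and both far lower in the labelled KO with either treatment, at 53.3, 60.3 and 57.1 FPKM with vehicle and 79.1, 89.9 and 53.4 with hemin in controls, and 3.83, 3.89 and 3.99 with vehicle and 1.45, 1.34 and 1.28 with hemin in the labelled KO for Hoxb6. The list's share called more negative was 7.14%, against 2.56% of all genes. Of that list 6 genes were higher and 9 lower in the labelled KO under vehicle, and the same numbers under hemin, against 6.8% and 6.01% of all genes in either direction. Whether the colonoid lines came from the same stretch of colon is not given, and its part in the interaction was not tested. Without the 3 libraries rich in Gm23935, Hoxb5 was at −0.99. Of 9 claudins, Cldn15, of sodium-permeable junctions, was more negative, at −2.13 (SE 0.16, adjusted p = 9.1e-06), and Cldn4 more positive, at 1.18 (SE 0.17, adjusted p = 0.00054), and none of 6 keratins was called.

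Of 9 superoxide dismutases, catalase and oxidases, Nox1 and Noxa1, an epithelial NADPH oxidase and its activator, were more negative. Nox1 stood at 9.24, 7.63 and 8.27 FPKM with vehicle and 0.133, 0.128 and 0.104 with hemin in controls, and 68.5, 71.5 and 65.9 with vehicle and 0.252, 0.244 and 0.379 with hemin in the labelled KO. It fell in both genotypes and further in the labelled KO, with an interaction of −2.69 (SE 0.10, adjusted p = 7.3e-08). Of 16 circadian clock genes, Npas2, Nfil3 and Cry1 were more positive and Dbp, an output gene of the clock, more negative. Dbp was at −1.11 (adjusted p = 0.051) without the 3 libraries rich in Gm23935. Cry1, at 1.02, was at 0.95 to 0.99 without control vehicle replicate 1, control hemin replicate 3, KO vehicle replicate 3 or KO hemin replicate 1. Npas2, a partner of BMAL1, stood at 10.01, 8.93 and 10.8 FPKM with vehicle and 3.33, 3.02 and 2.89 with hemin in controls, and 6.26, 6.73 and 6.32 with vehicle and 8.29, 8.14 and 7.54 with hemin in the labelled KO, with an interaction of 1.69 (SE 0.11, adjusted p = 1.8e-06). Of 26 pyroptosis, necroptosis and caspase genes, Gsdmc2 and Gsdmc3 were more positive and Pycard, the inflammasome adaptor ASC, more negative (−1.48, SE 0.09, adjusted p = 1.6e-06). These are 7.69% and 3.85% of the list, against 2.57% and 2.56% of all genes. With limma-voom neither gasdermin was called, with Gsdmc2 at 0.25 (adjusted p = 0.872) and Gsdmc3 at 1.97 (adjusted p = 0.194). None of 15 lipid peroxidation and ferroptosis modifiers was called. By the adjusted p alone 7 of them were more positive and 3 more negative, against 13.3% and 10.5% of all genes. Of 8 genes of lipid absorption, Mogat2 and Dgat2, acyltransferases of triglyceride synthesis, were more positive. Dgat2 stood at 25.96, 29.1 and 32.7 FPKM with vehicle and 19.5, 21.3 and 16.3 with hemin in controls, and 13.8, 14.2 and 13.7 with vehicle and 24.8, 19.4 and 23.6 with hemin in the labelled KO, with an interaction of 1.25 (SE 0.16, adjusted p = 0.00029). Of 12 genes of transsulfuration and sulfide oxidation, Suox, sulfite oxidase, was more positive (1.45, SE 0.12, adjusted p = 1.7e-05) and Cdo1 and Csad, which make taurine from cysteine, more negative.

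Large housekeeping lists had few calls. Of 84 cytosolic ribosomal protein genes none was called, but 80 had an interaction below 0 at a median of −0.36, 25 passed the adjusted p alone in that direction, and hemin lowered 16 in the labelled KO and 2 in controls. Rplp0, of the ribosomal stalk, stood at 1422, 1285 and 1375 FPKM with vehicle and 1138, 1258 and 1204 with hemin in controls, and 1367, 1407 and 1379 with vehicle and 898, 924 and 904 with hemin in the labelled KO, with an interaction of −0.43 (SE 0.09, adjusted p = 0.0061). Of 81 nuclear and 13 mitochondrial oxidative phosphorylation genes, 1 and none were called, and of 76 mitochondrial ribosomal proteins none. The 1 was Cox7a1, a cytochrome oxidase subunit, at −1.06, or −0.96 to −0.86 without control vehicle replicate 1, KO vehicle replicate 1 or KO hemin replicate 1. Hemin lowered 27 of 41 DNA replication genes in controls and 24 in the labelled KO, and 32 and 21 of 35 mitosis genes. Of both lists Rrm2, a ribonucleotide reductase subunit, and Ccnd1, cyclin D1, were called, both as a smaller fall in the labelled KO, or 2 of 41 and none of 35 against 2.57% of all genes. Ccnd1, at 1.00, was below that size, at 0.92 to 0.997, when control vehicle replicate 2 or 3, control hemin replicate 3, KO vehicle replicate 1 or KO hemin replicate 2 was left out. Rrm2 stood at 35.5, 34.5 and 34.1 FPKM with vehicle and 9.11, 13.1 and 11.9 with hemin in controls, and 43.6, 40.6 and 39.7 with vehicle and 30.9, 36.5 and 32.5 with hemin in the labelled KO, with an interaction of 1.24 (SE 0.16, adjusted p = 0.00021). Cdc20, an activator of the anaphase-promoting complex, fell by 1.70 in controls and by 1.54 in the labelled KO on the log2 scale, and the difference of these did not pass the test (adjusted p = 0.36).

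**Figure D5:**
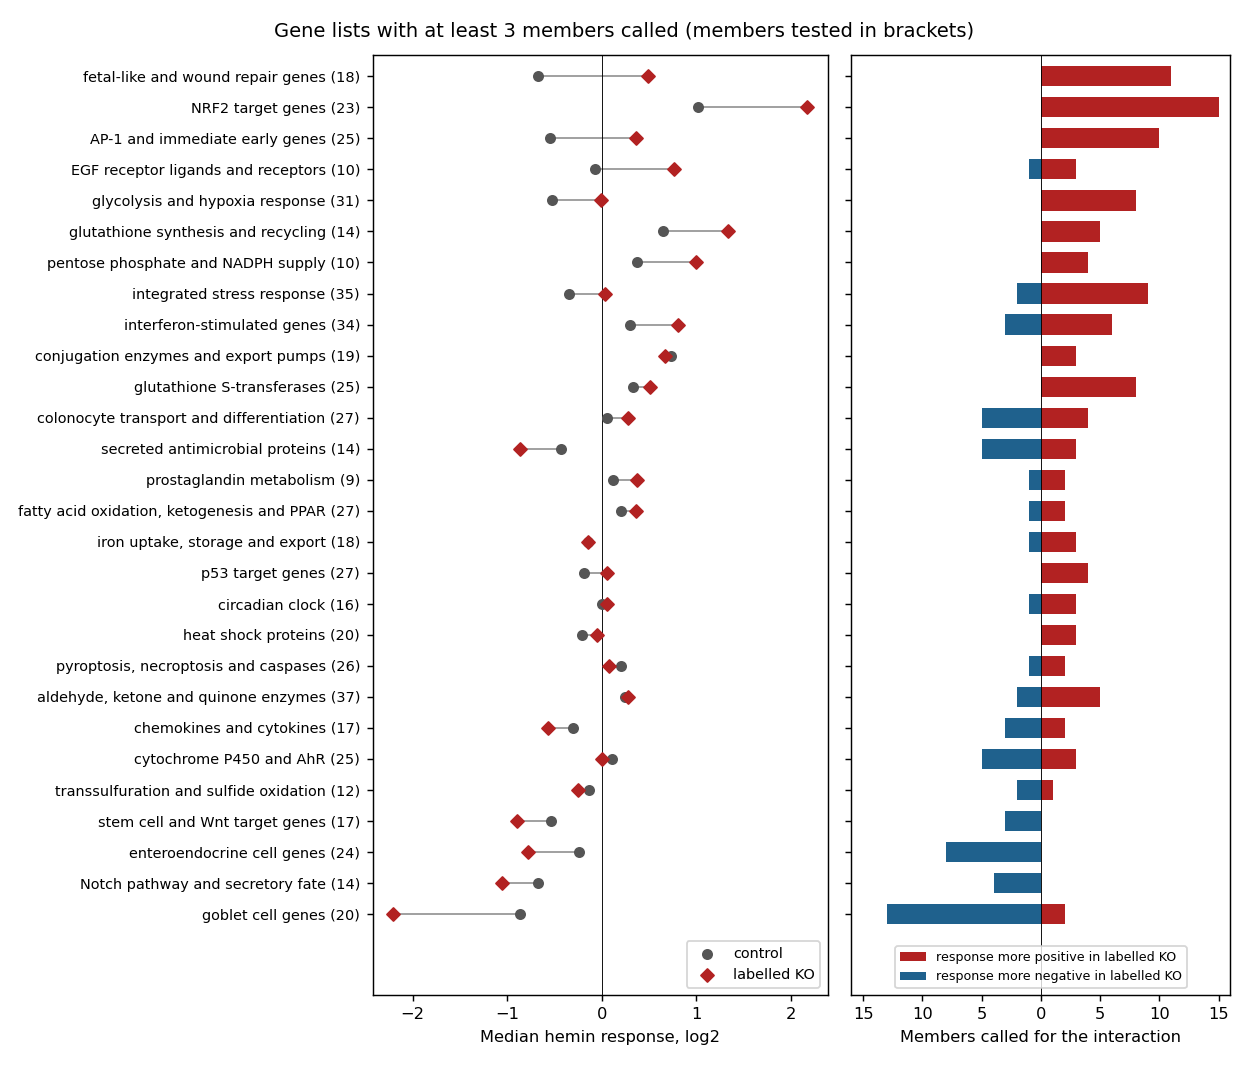
The left panel gives the median hemin response of each gene list in controls (circles) and in the labelled KO (diamonds) as log2 differences, and the right panel the number of members called for the interaction in each direction, for lists with at least 8 genes tested and 3 called. NRF2 target genes and fetal-like and wound repair genes lead the more positive calls with 15 and 11 members, and goblet cell genes the more negative ones with 13.

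Other genes had large interactions without belonging to a list. Mal, a lipid raft protein of apical transport, stood at 2.01, 3.22 and 2.23 FPKM with vehicle and 0.757, 0.517 and 1.17 with hemin in controls, and 4.73, 4.56 and 5.05 with vehicle and 35.97, 28.4 and 34.2 with hemin in the labelled KO. Slc10a2, the sodium-dependent bile acid importer, stood at 8.31, 8.08 and 7.61 FPKM with vehicle and 2.28, 2.18 and 3.46 with hemin in controls, and 5.07, 4.598 and 4.85 with vehicle and 16.4, 19.5 and 18.4 with hemin in the labelled KO. Both fell in controls and rose in the labelled KO, with interactions of 3.49 and 3.03. Rnf186, an E3 ubiquitin ligase of the colonic epithelium, did the reverse in sign. It stood at 83.3, 103 and 97.99 FPKM with vehicle and 130.3, 145 and 101 with hemin in controls, and 75.2, 79.7 and 86.9 with vehicle and 12.8, 13.4 and 14.5 with hemin in the labelled KO, with an interaction of −2.88 (SE 0.18, adjusted p = 1.8e-06). Clca3b, a CLCA family member, stood at 52.6, 47.5 and 51.2 FPKM with vehicle and 38.2, 47.3 and 47.6 with hemin in controls, and 84.4, 82.8 and 81.2 with vehicle and 3.66, 3.45 and 3.42 with hemin in the labelled KO. It did not pass the test in controls and fell by 4.22 on the log2 scale in the labelled KO, with no overlap under hemin.

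Some large values came from genes that 1 genotype expressed far more than the other under vehicle. Myl7 and Gsdmc2, an atrial myosin light chain and a gasdermin, stood at 43.5, 43.1 and 41.6 and 73.6, 77.4 and 68.9 FPKM in controls with vehicle and at 4.87, 4.903 and 3.62 and 8.32, 7.37 and 7.11 in the labelled KO. With hemin both fell below 0.6 FPKM in every library, from a lower start in the labelled KO (interactions 3.07 and 2.83). The ratio of mean FPKM with hemin to that with vehicle was alike for Gsdmc2, at 0.0037 in controls and 0.0053 in the labelled KO. For Myl7 it was 0.0091 and 0.099. With limma-voom on the fragments the interaction of Gsdmc2 was 0.25 (adjusted p = 0.872), while Myl7 kept its call. Tgm3, a transglutaminase, stood at 37.9, 39.97 and 37.5 FPKM in the labelled KO with vehicle and at 1.56, 0.976 and 1.25 with hemin, and at 0.246 or less in every control library. The same shape was seen for Trpv6, an epithelial calcium channel, and B3gnt7, a glycosyltransferase, with interactions of −3.39 and −2.81, which limma-voom put at −1.16 (adjusted p = 0.573) and −0.26 (adjusted p = 0.835).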

How the data were processed

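RNA from mouse colonoids was sequenced by Novogene from poly-A-selected libraries, 3 per group, and reads were aligned to mm10. The submitters' processing notes name fastp, HISAT2 2.0.5 and featureCounts 1.5.0-p3. Bioinformatic analysis was also by Novogene. The deposited table holds FPKM per gene, computed from fragments counted on genes, gene length and the fragments of each library. Whether counting used strand is not given in the sources used here. Fragments were recovered as whole numbers from FPKM and gene length for all values of each library (tolerance 0.001) and gave the depths.

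Log2(FPKM + 1) was fitted with 4 group means in limma 3.58.1 (R 4.3.3) with an intensity trend, over genes at 1 FPKM or more in at least 3 libraries. Contrasts were the response to hemin in each genotype, the genotype difference under each treatment, and the difference of the responses. P-values were adjusted over 12740 genes by Benjamini-Hochberg, and a call needed an adjusted p under 0.05 and a log2 difference above 1. The scripts were tested on simulated data. No 2 libraries of a group agreed within sampling noise, with chi-square values per degree of freedom from 1.93 up. The samples have 8 residual degrees of freedom.

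Named genes were Hmox1, the 12 largest called interactions of each sign at a mean of 5 FPKM or more in a group, the 5 largest of each sign with opposite responses, and up to 4 called members of each list (2 of the highest level where none was called). Other called members of lists were named after their values were seen. Gene lists and members were chosen with earlier results of these data known. Promoters came from RefSeq on GRCm38.p6 (250 bases before to 50 after the start) and were matched by symbol. Alternatives changed the pseudocount, filter, scaling, block, moderation, depth and libraries, and limma-voom was run on the recovered fragments. TPM without Gm23935 and the fit without the 3 libraries rich in it were added after seeing the data.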

Additional observations from a re-analysis of the deposited data

Results flagged for a closer look

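The results below were picked out because hemin had a different effect in the genotypes by the test of that difference. They were the 328 genes with a more positive and the 326 with a more negative response in the labelled KO. Of these, 66 fell in controls and rose in the labelled KO, and 33 rose in controls and fell in the labelled KO. Hmox1, with an interaction of 2.81, was higher than controls in the libraries labelled KO when hemin was given. No test for a single outlying value within a group of 3 was run.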

How the results depend on the processing

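With a pseudocount of 0.1, 438 interactions were more positive and 533 more negative, hemin raised 496 and lowered 1264 genes in controls and lowered 1563 in the labelled KO, and 1342 genes differed between genotypes under hemin. With limma-voom the interaction counts were 438 and 524, hemin raised 524 and lowered 1306 genes in controls and raised 936 and lowered 1669 in the labelled KO, and the genotypes differed in 1304 genes under vehicle and 1399 under hemin. The calls shared with those reported were 285 and 256. At a mean of at least 5 FPKM, which tests fewer genes, 211 and 123 interactions were called, hemin lowered 437 genes in controls and 539 in the labelled KO, and the genotypes differed in 392 and 422. Rescaled to TPM, hemin raised 171 genes in controls, and raised 305 and lowered 1808 in the labelled KO (373 raised without Gm23935). By the adjusted p alone the interaction counts were 1695 and 1336. Without the 3 libraries rich in Gm23935, 418 were more positive and 328 more negative. Among named genes called in the reported fit or in the alternative, Best2 alone turned in direction, at 0.18 with limma-voom. Turns of genes called in neither fit were not counted. Of 157 named genes, 124 kept their status, called or not called, in every setting in which they were tested, and 33 did not. The 157 include genes that were not called, so 124 is not a count of calls that held. At a mean of at least 5 FPKM, 130 were tested. The median of 39 of 55 lists kept its sign. Apart from the shrunken set of genes at 5 FPKM, the cause of these shifts was not tested.

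Leaving out 1 library gave 300 to 352 more positive and 312 to 377 more negative interactions, 276 to 313 genes raised and 724 to 843 lowered in controls, 604 to 645 raised and 1011 to 1051 lowered in the labelled KO, and 850 to 875 and 759 to 844 genes that differed between genotypes under vehicle and hemin. With the replicate number as a block, 321 interactions were more positive and 318 more negative, and no named gene changed its call. No pairing by number was seen, as deviations of same-numbered libraries correlated at −0.04 on average (−0.33 to 0.18). Other pairs were at 0.02 (−0.39 to 0.34), and with such overlap the correlations cannot decide whether the libraries were paired. Depth limits genes at the floor: 37 more positive and 68 more negative genes had a group with no library above 3 fragments.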

Other observations

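Tnfrsf12a, the TWEAK receptor, stood at 47.7, 57.8 and 61.3 FPKM with vehicle and 58.8, 76.8 and 28.05 with hemin in controls, and 34.2, 31.4 and 37.4 with vehicle and 108, 81.3 and 110.2 with hemin in the labelled KO, with an interaction of 1.64 (SE 0.41, adjusted p = 0.014). Cpt1a, the gatekeeper of mitochondrial fatty acid import, had an interaction of 1.31 (SE 0.07, adjusted p = 4.7e-07). Adm, adrenomedullin of the hypoxia list, stood at 1.83, 1.52 and 1.39 FPKM with vehicle and 0.325, 0.261 and 0.3701 with hemin in controls, and 1.02, 1.54 and 0.991 with vehicle and 2.14, 1.76 and 2.67 with hemin in the labelled KO, with an interaction of 1.51 (SE 0.18, adjusted p = 0.00017). Ramp1, a subunit of CGRP receptors in the goblet list, stood at 2.23, 2.87 and 2.79 FPKM with vehicle and 1.33, 1.01 and 0.935 with hemin in controls, and 9.57, 11.7 and 11.5 with vehicle and 0.735, 0.661 and 0.5996 with hemin in the labelled KO, with an interaction of −2.04 (SE 0.15, adjusted p = 6e-06).

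Replicate 3 of the hemin-treated controls differed from the other 2 for Insm1, at 0.469 FPKM against 1.53 and 1.5003, for Spdef, at 0.817 against 2.66 and 3.34, for Tnfrsf12a, at 28.05 against 58.8 and 76.8, for Ctsd, at 145 against 216 and 217, for Gclc, at 430.1 against 334 and 332, and for Me1, at 41.3 against 29.5 and 29.7. Without it, 10 calls of named genes were lost and 1 was gained, and genes with an unadjusted p under 0.05 for the interaction went from 4514 to 5908.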
